A study of Mus musculus with 12 samples.

Results

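Integrins and the adaptor proteins that tie them to the actin cytoskeleton were followed in cultured neural stem cells (NSCs) from mouse forebrain. The 34 genes were taken from the deposited gene tables by a rule on symbols that used no value, although earlier results of these data were known. They were 18 integrin alpha subunits, 8 integrin beta subunits and 8 focal adhesion adaptors (Tln1, Tln2, Ilk, Fermt1, Fermt2, Fermt3, Ptk2 and Pxn) of 45792 genes listed. Of these, 27 passed the filter on low counts and were tested, and the other 7 are described separately.

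Integrins are cell surface receptors made of an alpha and a beta subunit. The alpha subunit largely sets which ligand is bound (fibronectin, vitronectin, laminin or collagen), and Itgb1 is the partner shared by most of them. Talin (Tln1, Tln2) and kindlin (Fermt1 to Fermt3) bind the beta tail and switch the receptor on, and integrin-linked kinase (Ilk), paxillin (Pxn) and focal adhesion kinase (Ptk2) gather at the resulting adhesion. Laminin receptors are known for holding NSCs in their niche, Itgb8 with Itgav for releasing active Tgfb1 in brain, and Igfbp2, the protein added in this study, carries an RGD motif of the kind that integrins recognize.

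RNA came from primary NSC cultures of newborn pups, passaged in serum-free medium with EGF and FGF, and each of the 12 libraries was 1 culture. The 4 WT cultures received no Igfbp2. The 8 Ncf1-/- cultures lacked Ncf1, a subunit of the Nox2 oxidase, in the whole animal. Of these, 4 received vehicle and 4 received mouse recombinant Igfbp2 at 100 ng/ml (the dose on the labels) 48 h after plating, and RNA was taken 48 h after that. The study's methods give a lower dose for these cultures. By the study's methods the cells of each pup were kept apart, and the Ncf1-/- cultures were set up in pairs from the same animal. No WT culture given Igfbp2 was analysed here. Replicates are numbered as in the labels' order, values are listed from replicate 1 to 4, and the numbers carry no order. In bulk RNA, fewer cells of a type and less RNA per cell cannot be told apart.

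The libraries held between 18201622 (Igfbp2-treated replicate 2) and 34086554 (WT replicate 3) expected counts, of which the 34 genes took 0.170% to 0.314%. Ncf1 itself did not check the labels, with 2 to 7 counts in WT, 2 to 4 in vehicle-treated and 1 in Igfbp2-treated libraries. NSC markers were present throughout, but the WT libraries differed among themselves. Levels are given in CPM, read counts set against the TMM-scaled size of the library. The summed level of 7 NSC markers was 3111, 3284, 8830 and 4903 CPM in WT, against 8297 to 8913 in vehicle-treated and 8351 to 9081 in Igfbp2-treated Ncf1-/- NSCs. Single markers did not all follow this sum. Between vehicle-treated and WT NSCs 2 of the 7 were higher and 4 lower (adjusted p under 0.05, edgeR's quasi-likelihood test). The median log2 fold change of the 7 was −0.43. Sox2, for example, was at 371 to 408 CPM in WT, 191 to 200 in vehicle-treated and 199 to 233 in Igfbp2-treated libraries. The sum of 6 markers of myelinating oligodendrocytes ran against the NSC sum, at 8733, 8961, 1483 and 4945 CPM in WT and 192 to 281 CPM in the Ncf1-/- libraries. On these 2 sums WT replicate 3 therefore stood apart from the other WT libraries and nearer to the Ncf1-/- libraries. On the sum of 5 astrocyte markers WT replicate 3 was instead the farthest from the Ncf1-/- libraries, at 10454 CPM. WT replicates 1, 2 and 4 were there at 5373, 5870 and 9227 CPM, and the Ncf1-/- libraries at 1969 to 3028.5 CPM. Expression of 4 Y-linked genes was 107 to 118 CPM in WT replicates 1 to 3, 6.46 in WT replicate 4, 105 to 115.5 in vehicle-treated and 7.79 to 9.18 in Igfbp2-treated libraries. Xist, which silences the second X chromosome in female cells, was 3.87 to 5.22, 291, 72.3 to 87.8 and 166 to 275 CPM in the same order. Sex-linked expression and Igfbp2 treatment therefore cannot be told apart, and it does not match a pairing of the cultures by animal. All vehicle-treated libraries held Y-linked RNA near the level of WT replicates 1 to 3 together with Xist far above theirs. Whether each vehicle-treated culture came from 1 pup was not tested. WT replicate 4 is untreated by its label and by 1 sample sheet of the study, whereas another sheet lists its library number under apocynin, an oxidase inhibitor.

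**Figure D1:**
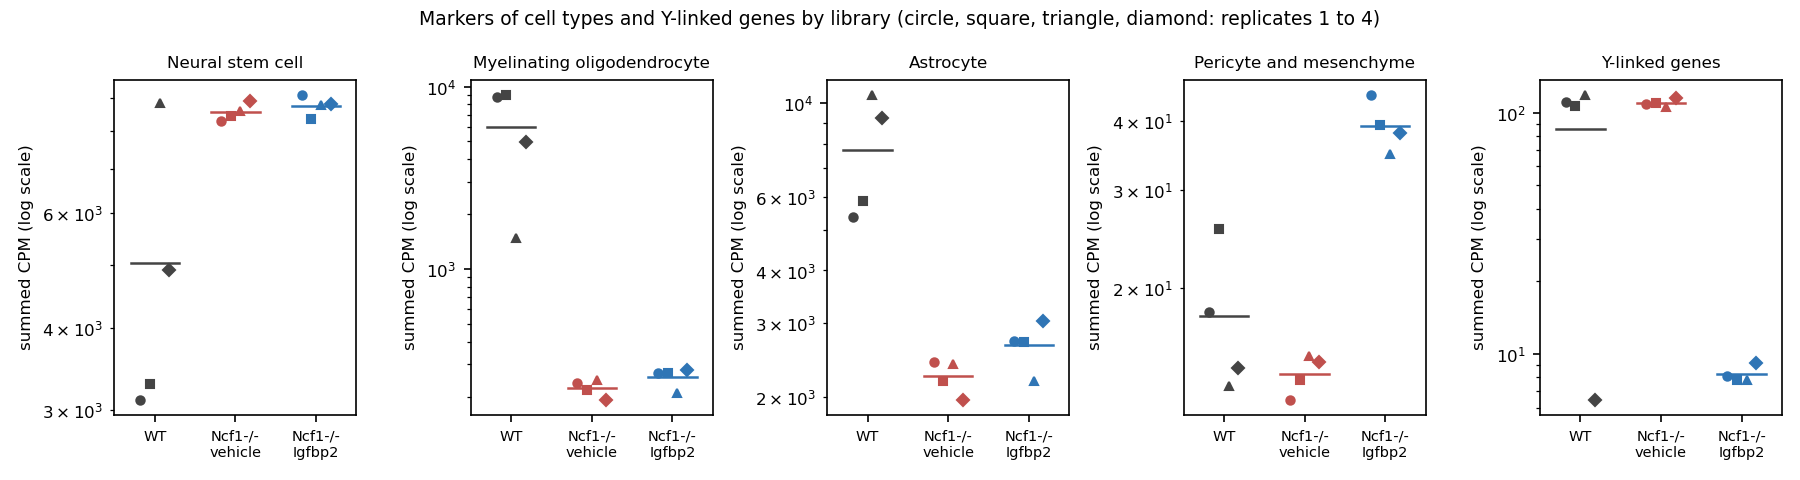
Summed level in CPM (log axis) for 4 marker lists and the Y-linked genes, with 1 point per library (the symbol gives the replicate) and a line at the mean of WT, vehicle-treated and Igfbp2-treated Ncf1-/- NSCs. WT replicate 3 lies at 8830 CPM for NSC markers and 1483 CPM for myelin markers in place of the 4903 CPM or less and 4945 CPM or more of the other WT libraries.

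Loss of Ncf1 was accompanied by higher RNA of 8 of the 14 integrin alpha subunits tested and of Itgb1. RNA of Itgb5, Itgb3, Itgb7 and of the adaptors Tln1, Tln2 and Pxn was lower. Between vehicle-treated Ncf1-/- and WT NSCs, 15 of the 27 genes were called, that is, had an adjusted p under 0.05 in edgeR's quasi-likelihood test. This was a share near that of all genes, of which 57.2% of the 15706 tested were called. The 9 that rose were 8 alpha subunits and Itgb1 (28.9% of all genes rose), and the 6 that fell were 3 beta subunits and 3 adaptors (28.2% of all genes fell). Among the 14 alpha subunits tested, 8 rose and 0 fell, with a median log2 fold change of 0.84 against 0.02 over all genes. The 6 beta subunits had 1 rise, 3 falls and a median of −0.22, and the 7 adaptors had 0 rises, 3 falls and a median of −0.22. On log2(TPM + 1) 6 genes rose and 2 fell, both of the latter beta subunits. Without WT replicate 3 the count was 20 in place of 15, since Itgb4, Itgb8, Itga7, Itga9 and Ptk2 were then also called.

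Igfbp2 treatment of Ncf1-/- NSCs was accompanied by higher RNA of 4 alpha subunits (Itga2, Itga5, Itga6 and Itga7), 3 beta subunits (Itgb1, Itgb4 and Itgb5) and 3 adaptors (Tln1, Pxn and Fermt2), of which Itga7 and Itgb4 were also called higher on log2(TPM + 1). In this comparison 12 of the 27 genes were called, against 25.0% of all genes. The 10 that rose were Itga2, Itga5, Itga6, Itga7, Itgb1, Itgb4, Itgb5, Tln1, Pxn and Fermt2 (14.2% of all genes rose), and the 2 that fell were Itga10 and Fermt3, both near the lower limit of detection (10.7% of all genes fell). The median log2 fold change was 0.44 over the 27 genes and 0.04 over all genes. These counts depend on the scaling between libraries, which moved the median of all genes to −0.23 with library totals and to −0.30 on log2(TPM + 1). With those, 7 genes (4 higher, 3 lower) and 4 genes (2 higher, 2 lower) were called. The alpha subunits, beta subunits and adaptors had medians of 0.40, 0.57 and 0.38, and on log2(TPM + 1), where they were −0.06, 0.01 and −0.08, they lay 0.23, 0.31 and 0.22 above the median of all genes. With Y-linked expression as a covariate, 0 of the 27 were called in edgeR's quasi-likelihood test (5 at an unadjusted p under 0.05) and 5 of all genes, whereas DESeq2 without the covariate called 13.

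In Igfbp2-treated Ncf1-/- NSCs 10 of the 14 alpha subunits were called above WT, and none of the adaptors was called. Compared with WT, 15 of the 27 genes were called in the treated cells, against 62.4% of all genes. The 12 that rose were 10 alpha subunits, Itgb1 and Itgb4 (31.6% of all genes rose), and the 3 that fell were Itga10, Itgb3 and Itgb7 (30.8% of all genes fell). With library totals 12 rose and 4 fell, and on log2(TPM + 1) and log2(TPM + 0.1) 7 and 8 rose and 3 and 5 fell. The alpha subunits had a median log2 fold change of 1.29, against −0.01 over all genes. None of the 7 adaptors was called by edgeR's quasi-likelihood test, and their median was 0.05. The lowest were Fermt3 at −0.78 (SE 0.45, adjusted p = 0.146) and Tln2 at −0.40 (SE 0.17, adjusted p = 0.0579). Tln2 was the 1 adaptor at an unadjusted p under 0.05, and it was called lower in 9 of 23 alternatives, DESeq2, library totals and both TPM scales of limma among them. The 3 comparisons share libraries in pairs, so their values stand side by side and are not independent of each other. By the same test without WT replicate 3, 19 of the 27 genes were called in place of 15.

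**Figure D2:**
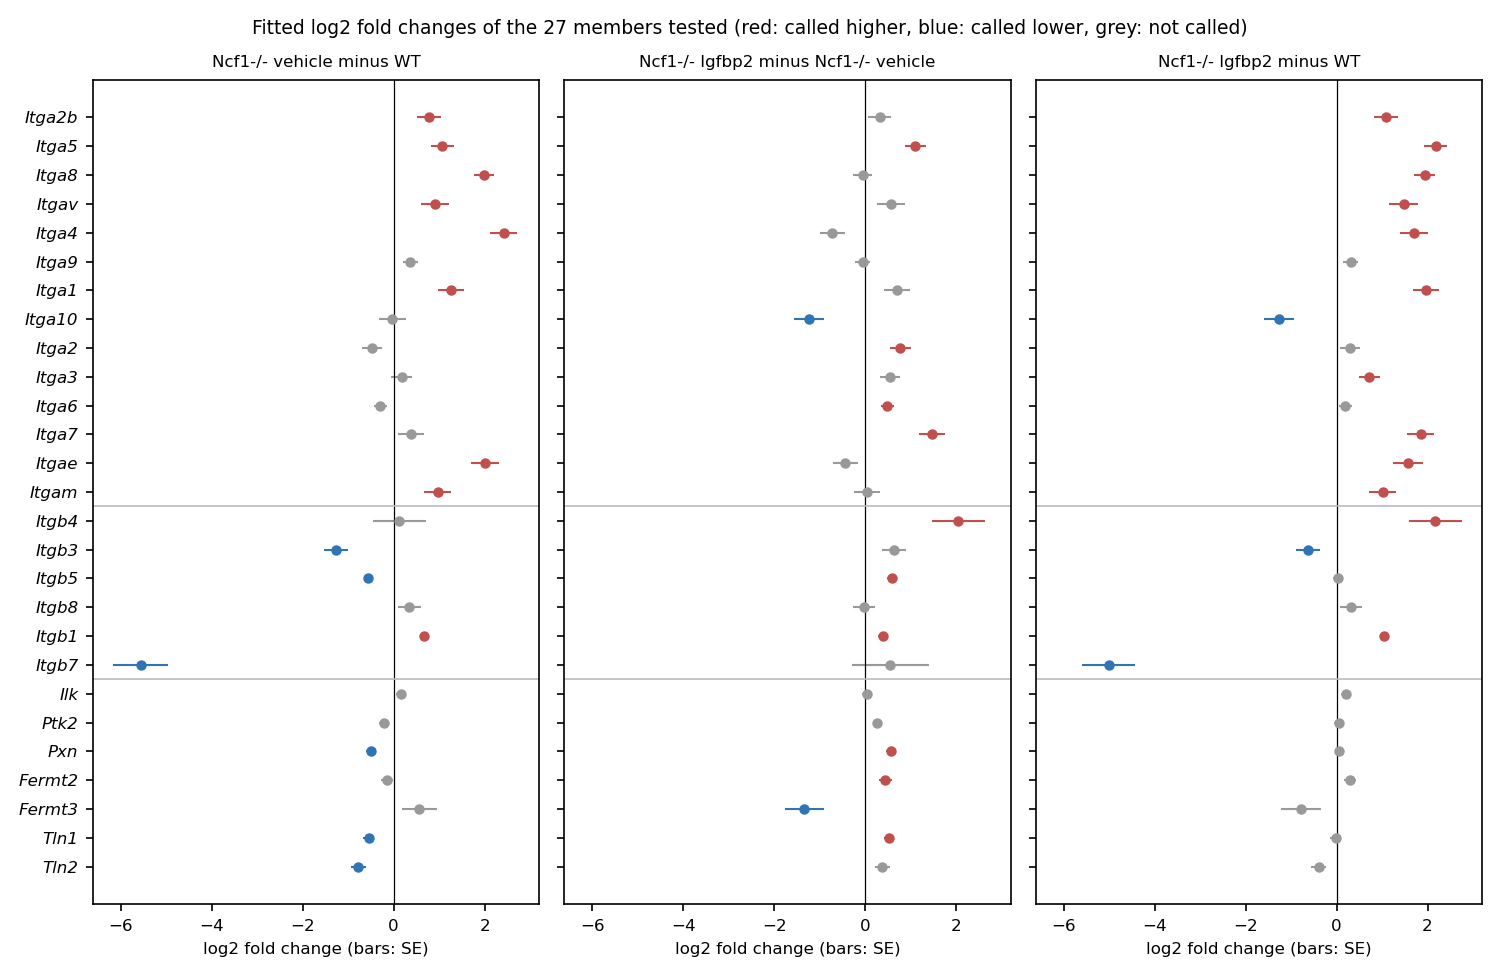
Fitted log2 fold change (horizontal axis) with its standard error (bars) for each of the 27 genes tested, with 1 panel for each of the 3 comparisons. Red and blue points were called higher and lower at an adjusted p of 0.05, and grey points were not called. Itgb7 lies at −5.56 and −5.01 against WT, and the 7 adaptors, none of them called, lie between −0.78 (Fermt3) and 0.30 (Fermt2) between Igfbp2-treated and WT NSCs.

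Itgb1 (chromosome 8, 128685654 to 128733200, plus strand, GRCm38) rose at both steps. It stood at 330.0, 298, 327 and 350.0 CPM in WT, at 473, 481, 520.0 and 602 CPM in vehicle-treated and at 703, 647, 672 and 688 CPM in Igfbp2-treated Ncf1-/- NSCs. No library of any group reached into the range of another, and WT replicate 3 lay within the other WT libraries. The log2 fold change was 0.67 (SE 0.09, adjusted p = 4.7e-05) without Ncf1, 0.38 (SE 0.09, adjusted p = 0.0114) with Igfbp2 and 1.05 (SE 0.09, adjusted p = 1.21e-06) between Igfbp2-treated and WT NSCs. The treatment call was lost with library totals, and the value changed sign, to −0.08, on log2(TPM + 1), where it lay 0.22 above the median of all genes.

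Itgb5 (chromosome 16, 33829665 to 33949338, plus strand), a partner of Itgav in vitronectin receptors, fell without Ncf1 and rose with Igfbp2. Its levels were 61.2, 74.3, 71.4 and 81.6 CPM in WT, 43.2, 47.1, 53.7 and 51.6 CPM in vehicle-treated and 70.2, 75.8, 76.0 and 71.3 CPM in Igfbp2-treated libraries. Every vehicle-treated library lay below every other library, and the Igfbp2-treated range fell inside the WT range. The log2 fold changes were −0.56 (SE 0.10, adjusted p = 0.000243) and 0.58 (SE 0.10, adjusted p = 0.00182), and 0.02 (SE 0.10, adjusted p = 0.835) between Igfbp2-treated and WT NSCs. On log2(TPM + 1) these values were −0.47, 0.10 and −0.37, and neither the fall nor the rise was called.

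Itgb7 (chromosome 15, 102215995 to 102231944, minus strand), known as the beta subunit of lymphocyte homing receptors, showed the largest difference of the 27 genes. It had 367, 226, 88 and 155 counts in the WT libraries, or 16.7, 12.2, 2.52 and 8.63 CPM. The vehicle-treated libraries had 5, 8, 1 and 5 counts and the Igfbp2-treated libraries had 8, 4, 5 and 6. The Ncf1-/- groups lay far below WT and overlapped each other, and within WT the lowest value was again that of replicate 3, where myelin markers were also lowest. Itgb7 fell by 5.56 on the log2 scale (SE 0.60, adjusted p = 5.91e-06), and by 5.89 without WT replicate 3. Of 10 leukocyte markers, Itgam among them, 2 passed the filter. Their sum was 0.835 to 1.67 CPM in WT, 1.72 to 2.13 CPM in vehicle-treated and 1.34 to 2.01 CPM in Igfbp2-treated libraries. Ptprc was at 0 counts in all WT libraries, and C1qa and C1qb were at 0 counts in all 12. The part of the oligodendrocyte markers in the Itgb7 difference was not tested.

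The RefSeq sequence of the 250 bases before the start of these 3 beta genes is shown because Itgb1 rose without Ncf1 while Itgb5 and Itgb7 fell. The capitals mark GC boxes, read as GGGCGG on either strand (CCGCCC on the printed strand for the reverse match). The windows are chr8:128685404-128685653 (plus strand), chr16:33829415-33829664 (plus strand) and chr15:102231936-102232185 (minus strand) of GRCm38.p6, each printed 5′ to 3′ along its gene.
Itgb1: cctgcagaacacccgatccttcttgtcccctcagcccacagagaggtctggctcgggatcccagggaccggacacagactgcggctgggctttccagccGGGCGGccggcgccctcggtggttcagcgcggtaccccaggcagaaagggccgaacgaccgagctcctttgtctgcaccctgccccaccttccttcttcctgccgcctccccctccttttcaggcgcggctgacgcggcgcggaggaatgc
Itgb5: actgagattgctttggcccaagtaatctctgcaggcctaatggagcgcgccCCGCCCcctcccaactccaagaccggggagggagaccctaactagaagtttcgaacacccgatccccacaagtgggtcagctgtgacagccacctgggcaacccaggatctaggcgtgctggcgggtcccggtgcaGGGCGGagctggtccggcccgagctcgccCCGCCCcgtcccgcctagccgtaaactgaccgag
Itgb7: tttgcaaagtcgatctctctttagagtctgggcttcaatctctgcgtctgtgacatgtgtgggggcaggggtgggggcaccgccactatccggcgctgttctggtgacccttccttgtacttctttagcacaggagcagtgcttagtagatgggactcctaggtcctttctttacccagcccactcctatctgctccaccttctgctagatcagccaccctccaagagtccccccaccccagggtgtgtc
Itgb1 had 1 GC box in this window, Itgb5 had 3 and Itgb7 had none, with base compositions of 68.0%, 65.2% and 56.0% G or C. Promoters were found in RefSeq for 23 of the 34 genes, and 10 of their 26 windows held a GC box against 32.74% of all 32851 windows. Of the other motifs searched on both strands, AP-1 (TGACTCA or TGAGTCA) was in 1 of the 26 windows (4.46% of all), CRE (TGACGTCA) in 0 (1.55%), the E box (CACGTG) in 1 (6.02%), the CArG box in 2 (1.47%) and CCAAT in 3 (33.85%). These matches describe the letters in the windows and no binding.

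Itgb3, the beta subunit of the platelet and of a vitronectin receptor, fell without Ncf1. It stood at 3.32, 4.10, 1.84 and 3.34 CPM in WT, 1.35, 1.55, 1.15 and 1.16 CPM in vehicle-treated and 2.05, 1.502, 1.77 and 2.70 CPM in Igfbp2-treated libraries. The vehicle-treated libraries lay below all WT libraries and the Igfbp2-treated libraries overlapped both. The log2 fold change was −1.26 (SE 0.26, adjusted p = 0.00105) without Ncf1, 0.63 (SE 0.27, adjusted p = 0.1002) with Igfbp2 and −0.63 (SE 0.25, adjusted p = 0.0456) against WT. The last call was lost in 13 of 22 alternatives, 8 of which left out a single library.

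Itgb4, which pairs with Itga6 as a laminin receptor, was the beta subunit on which WT replicate 3 weighed most. It stood at 0.955, 0.810, 10.4 and 2.39 CPM in WT, at 5.10, 4.11, 4.33 and 3.43 CPM in vehicle-treated and at 14.8, 22.1, 12.8 and 20.5 CPM in Igfbp2-treated libraries. All Igfbp2-treated libraries were above all others, while WT replicate 3 alone lay above the vehicle-treated range. The rise with Igfbp2 had a log2 fold change of 2.05 (SE 0.58, adjusted p = 0.0223), a call lost when 1 of 6 libraries was left out (any of the vehicle-treated libraries, or treated replicate 2 or 4). The difference between vehicle-treated and WT NSCs was 0.13 (SE 0.59, adjusted p = 0.869) with all libraries and 1.63 (adjusted p = 0.000828) without WT replicate 3. Itgb8 ranged from 165 to 435 CPM in WT, 298 to 361 in vehicle-treated and 288 to 335 in Igfbp2-treated libraries. Its log2 fold change without Ncf1 was 0.34 (SE 0.25, adjusted p = 0.252), and 0.76 (adjusted p = 0.000112) without WT replicate 3, the library at 435 CPM.

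**Figure D3:**
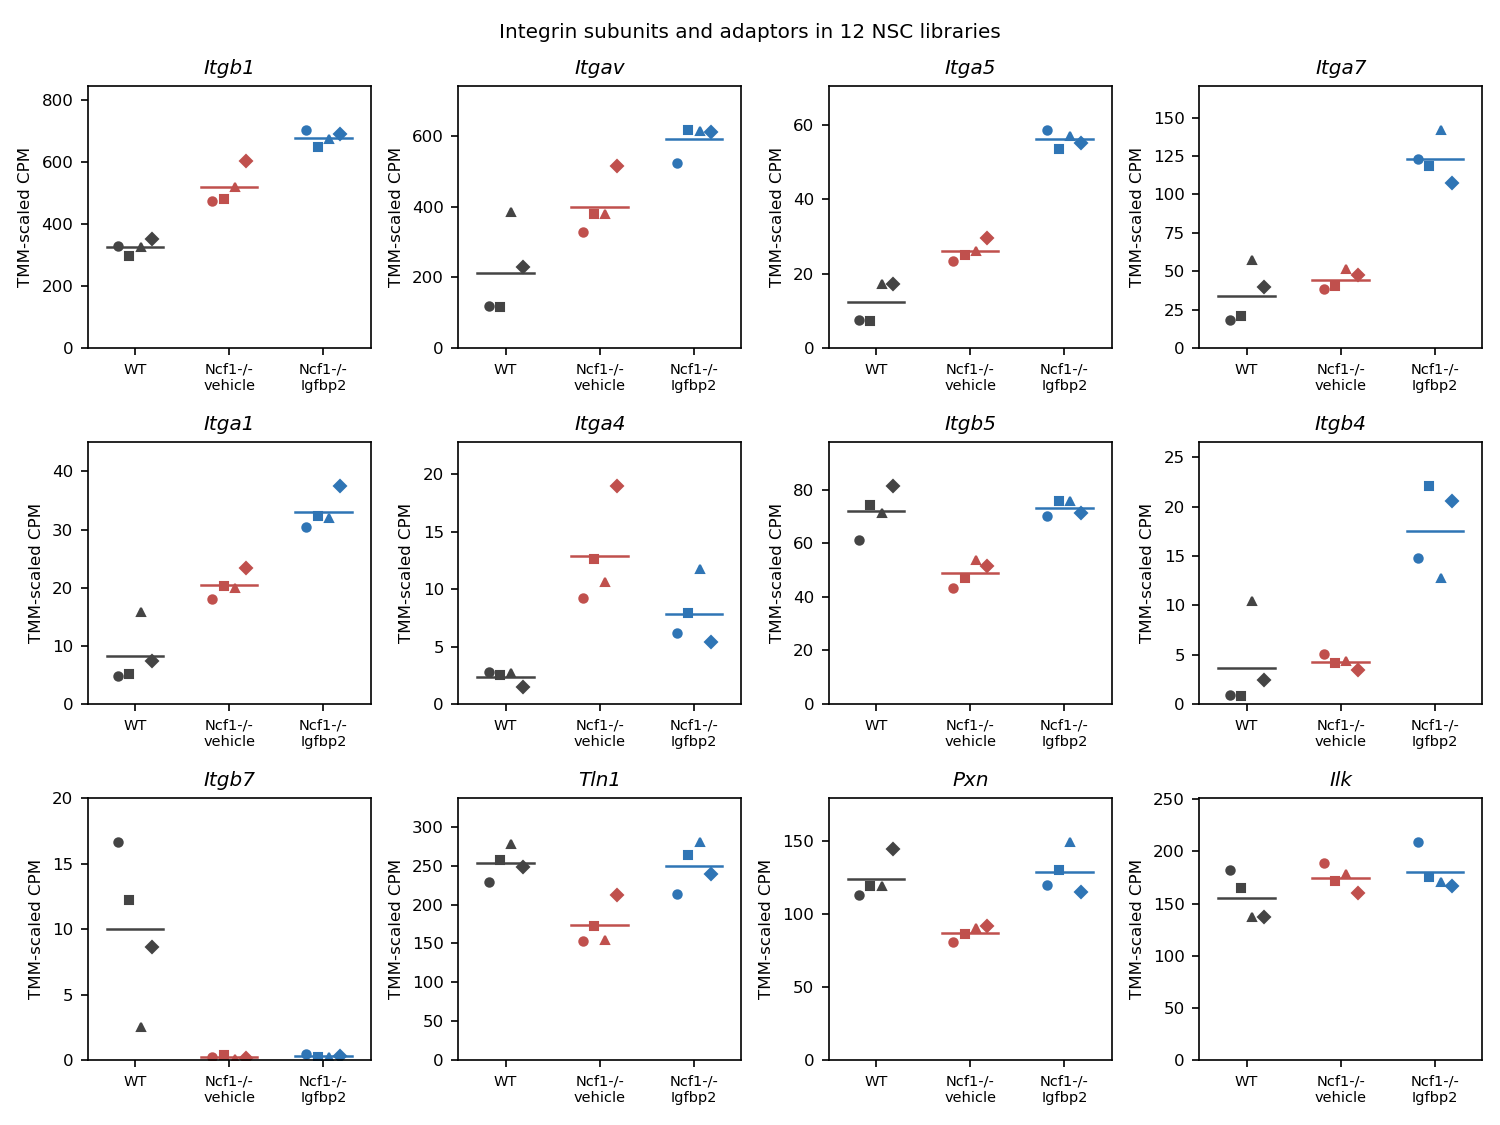
Level in CPM (linear axis from 0) of 12 integrin and adaptor genes in each of the 12 libraries, with 1 point per library, the symbol giving the replicate, and a line at each group mean. Itgb1, Itga5 and Itga1 each form 3 groups that do not overlap, and Itgb7 is at 2.52 to 16.7 CPM in WT and below 0.5 CPM in the Ncf1-/- libraries.

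Among the alpha subunits that bind the RGD motif or fibronectin, Itga5 and Itgav rose without Ncf1, and Itga5 rose again with Igfbp2. Itga5 (chromosome 15, 103344286 to 103366763, minus strand), the main fibronectin receptor subunit, stood at 7.55, 7.23, 17.2 and 17.3 CPM in WT, 23.5, 25.1, 26.2 and 29.6 CPM in vehicle-treated and 58.8, 53.7, 57.0 and 55.1 CPM in Igfbp2-treated libraries. The 3 groups did not overlap. It rose by a log2 fold change of 1.07 (SE 0.24, adjusted p = 0.00208) without Ncf1 and of 1.10 (SE 0.24, adjusted p = 0.00653) with Igfbp2, and was 2.18 above WT in treated cells (SE 0.25, adjusted p = 8.41e-06). Both rises were still called when any 1 of the 12 libraries was left out. On log2(TPM + 1) its treatment difference was 0.54 and not called, 0.83 above the median of all genes, and the rise without Ncf1 was 0.89 and called.

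Itgav (chromosome 2, 83724397 to 83806916, plus strand), which pairs with Itgb1, Itgb3, Itgb5 and Itgb8, stood at 119.9, 115, 386 and 231 CPM in WT, 328, 380.0, 379 and 517 CPM in vehicle-treated and 524, 619, 617 and 613 CPM in Igfbp2-treated libraries. WT replicate 3 lay within the vehicle-treated range, and the Igfbp2-treated libraries lay above all others. Itgav rose by 0.91 (SE 0.31, adjusted p = 0.0241) on the log2 scale without Ncf1, a call lost without WT replicate 1, WT replicate 2 or vehicle-treated replicate 4 and at 1.37 (adjusted p = 0.000153) without WT replicate 3. The treatment difference was 0.56 (SE 0.31, adjusted p = 0.199).

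Itga8 also belongs to the RGD receptors, whereas Itga4 and Itga9 form a group of their own. Itga4, which binds Vcam1 and fibronectin, was at 2.82, 2.48, 2.72 and 1.45 CPM in WT, 9.19, 12.6, 10.6 and 19.0 CPM in vehicle-treated and 6.20, 7.93, 11.8 and 5.35 CPM in Igfbp2-treated libraries. All Ncf1-/- libraries lay above all WT libraries, and WT replicate 3 was among its own group. Exons of Itga4 and Cerkl, on opposite strands, share 1124 bases. The log2 fold change of Itga4 was 2.42 (SE 0.30, adjusted p = 1.72e-05) without Ncf1, the largest rise of the 27 genes there, −0.72 (SE 0.28, adjusted p = 0.0726) with Igfbp2 and 1.70 (SE 0.30, adjusted p = 0.000302) against WT. With Igfbp2 it was called lower in 7 of 24 alternatives, DESeq2, library totals and both TPM scales of limma among them. Itga8, a nephronectin receptor subunit, was at 0.728, 1.57, 0.975 and 1.39 CPM in WT, 3.31, 4.79, 4.42 and 5.67 CPM in vehicle-treated and 4.21, 4.39, 4.50 and 4.52 CPM in Igfbp2-treated libraries. It too lay wholly above WT in both Ncf1-/- groups, by 1.99 (SE 0.23, adjusted p = 1.01e-05) and 1.94 (SE 0.23, adjusted p = 1.26e-05) on the log2 scale. Itga9, a tenascin receptor subunit, ranged from 5.45 to 8.23, 6.53 to 10.8 and 7.70 to 9.95 CPM in the 3 groups and was called in no comparison.

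The collagen receptors differed among themselves. Itga1 was at 4.82, 5.24, 15.7 and 7.35 CPM in WT, 18.04, 20.2, 19.96 and 23.4 CPM in vehicle-treated and 30.4, 32.4, 32.0 and 37.6 CPM in Igfbp2-treated libraries. The groups did not overlap, and the log2 fold change was 1.27 (SE 0.29, adjusted p = 0.00216) without Ncf1, 0.70 (SE 0.28, adjusted p = 0.0824) with Igfbp2 and 1.97 (SE 0.29, adjusted p = 7.53e-05) against WT. Itga2 was at 13.7, 16.8, 32.4 and 18.1 CPM in WT, 13.6, 14.0, 14.1 and 16.9 CPM in vehicle-treated and 20.99, 26.7, 22.3 and 30.7 CPM in Igfbp2-treated libraries. The treated libraries lay above the vehicle-treated ones and overlapped WT, where replicate 3 was highest. Itga2 rose with Igfbp2 by 0.78 (SE 0.22, adjusted p = 0.0245), a call lost with library totals, on log2(TPM + 1) and when 1 of 5 libraries was left out. Itga10 had 15, 17, 36 and 14 counts in WT, 24, 14, 18 and 23 in vehicle-treated and 3, 8, 5 and 11 in Igfbp2-treated libraries. The treated libraries lay below the rest in CPM, and Itga10 fell by 1.24 on the log2 scale (SE 0.33, adjusted p = 0.0181). The call was lost without vehicle-treated replicate 1 or treated replicate 3 and on log2(TPM + 1), where the difference was −0.22 against −0.30 for the median of all genes. Exons of Itga10 overlap those of a gene model on the same strand by 1739 bases and those of Itga1 overlap another by 685 bases, so that part of their reads could be shared.

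Of the 3 laminin-binding alpha subunits tested, Itga6 and Itga7 rose with Igfbp2. Itga7 (chromosome 10, 128933818 to 128958282, plus strand) was at 17.97, 20.9, 57.4 and 39.5 CPM in WT, 38.4, 40.6, 51.3 and 47.6 CPM in vehicle-treated and 123, 119, 142 and 107 CPM in Igfbp2-treated libraries. WT replicate 3 lay above every vehicle-treated library, and every Igfbp2-treated library lay above the rest. The log2 fold change was 1.46 (SE 0.29, adjusted p = 0.00428) with Igfbp2 and 1.85 (SE 0.29, adjusted p = 0.000122) against WT, and 0.38 (SE 0.29, adjusted p = 0.269) without Ncf1. The last was 0.77 (adjusted p = 0.00825) without WT replicate 3. Itga6, which NSCs of the adult niche carry, was at 154, 156, 231 and 212 CPM in WT, 134, 145, 149 and 187 CPM in vehicle-treated and 214, 210.1, 239 and 198 CPM in Igfbp2-treated libraries. The treated libraries lay above the vehicle-treated ones and overlapped WT, with a log2 fold change of 0.48 (SE 0.14, adjusted p = 0.0275) that was lost with library totals and when 1 of 6 libraries was left out and was −0.11 on log2(TPM + 1). Itga3 ranged from 1.09 to 2.28, 1.57 to 2.12 and 2.10 to 2.93 CPM in the 3 groups and was called against WT after Igfbp2 (0.72, SE 0.22, adjusted p = 0.0126), a difference of −0.12 on log2(TPM + 1).

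Alpha subunits known from leukocytes and platelets were present at low counts. Itgae had 4, 2, 4 and 4 counts in WT, 14, 13, 18 and 13 in vehicle-treated and 8, 10, 8 and 9 in Igfbp2-treated libraries, a log2 fold change of 2.01 without Ncf1 (SE 0.31, adjusted p = 0.000125) and of 1.57 against WT in treated cells (SE 0.33, adjusted p = 0.00119). Itgam was at 0.409, 0.594, 0.488 and 0.390 CPM in WT, 1.18, 0.677, 0.706 and 1.12 CPM in vehicle-treated and 0.997, 0.661, 0.765 and 1.37 CPM in Igfbp2-treated libraries, a log2 fold change of 0.97 (SE 0.30, adjusted p = 0.0146) and 1.01 (SE 0.31, adjusted p = 0.0114) against WT. Itga2b, the platelet subunit, was at 0.910, 0.864, 1.86 and 1.002 CPM in WT, 2.31, 2.27, 1.81 and 1.79 CPM in vehicle-treated and 3.21, 2.88, 2.01 and 2.16 CPM in Igfbp2-treated libraries. For Itgae and Itgam both Ncf1-/- groups lay above WT in CPM and overlapped each other, and for Itga2b WT replicate 3 alone reached the Ncf1-/- range. Itga2b was higher by 0.77 (SE 0.27, adjusted p = 0.0244) and 1.09 (SE 0.27, adjusted p = 0.00301) on the log2 scale, and the first call was lost when 1 of 5 libraries was left out. On log2(TPM + 1) Itgae and Itgam were called in neither comparison with WT, and Itga2b was not called between Igfbp2-treated and WT NSCs. Exons of Itgam share 3450 bases with another gene model on the same strand.

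Levels of different genes were compared per length, in TPM (counts divided by effective length and set against the sum of the library), as the share of each subunit in the summed TPM of its class within a library. Such shares do not depend on the scaling between libraries. For comparison, all alpha subunits together ran from 332 to 757 CPM in WT, 582 to 863 CPM in vehicle-treated and 997 to 1141 CPM in Igfbp2-treated libraries. The beta subunits together ran from 554 to 848 CPM, 826 to 1019 CPM and 1050.4 to 1118 CPM, and the adaptors from 860.1 to 949 CPM, 696 to 802 CPM and 897 to 1028 CPM. In CPM the treated libraries were thus highest for both kinds of subunit, and the vehicle-treated libraries lowest for the adaptors. In TPM the same sums overlapped between all groups. TPM of any gene also depends on how much of the library other RNAs take. Short structural RNAs such as Rn7sk and Rmrp took 59.8% to 66.8% of TPM in WT libraries. They took 56.0% to 60.3% in vehicle-treated and 62.1% to 72.3% in Igfbp2-treated libraries, and their part in the TPM values between groups was not tested. The alpha subunits ran from 59.6 to 168, 105 to 179 and 125 to 204 TPM in the 3 groups, the beta subunits from 89.5 to 141, 126 to 195 and 119 to 163 TPM and the adaptors from 179 to 227, 174 to 221 and 134 to 211 TPM. On that scale the highest beta subunit sum was in a vehicle-treated library and the lowest adaptor sum in a treated one. Itgav and Itga6 made up most alpha subunit RNA in all groups. The share of Itgav was 37.5% ± 9.18 in WT (SD, n = 4), 53.4% ± 1.59 in vehicle-treated and 55.8% ± 1.78 in Igfbp2-treated libraries, and that of Itga6 was 45.7% ± 9.02, 28.1% ± 1.46 and 22.3% ± 0.813. The largest alpha subunit by TPM was Itga6 in WT replicates 1 and 2, and Itgav in WT replicates 3 and 4 and in all 8 Ncf1-/- libraries. Itga7 took 6.20% ± 0.992 and 6.36% ± 0.582 in WT and vehicle-treated libraries and 10.8% ± 0.918 in Igfbp2-treated libraries. Among the beta subunits, Itgb1 took 60.05% ± 5.16, 71.4% ± 0.768 and 73.6% ± 1.67. Itgb8 and Itgb5 followed it, and the share of Itgb5 was 16.4% ± 2.26, 8.40% ± 0.647 and 9.88% ± 0.718. No test was run on the shares.

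**Figure D4:**
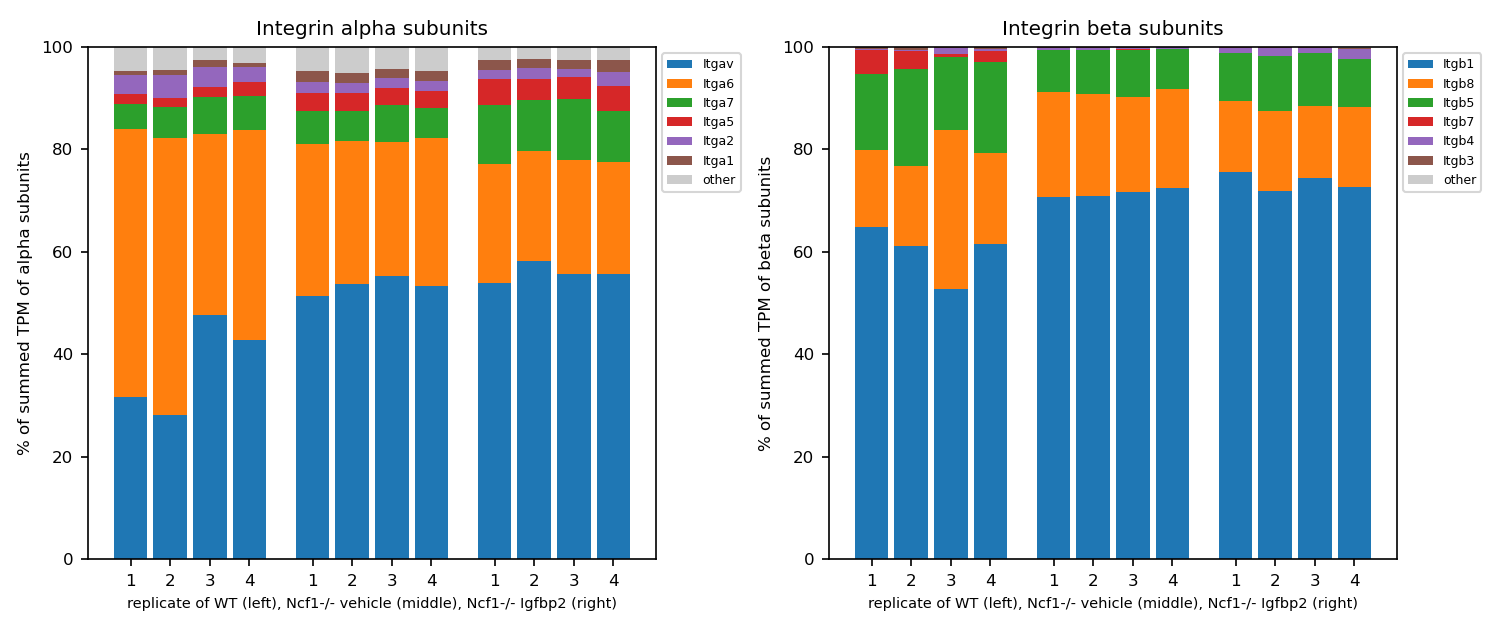
Share of each subunit in the summed TPM of the alpha subunits (left) and the beta subunits (right), in percent, with 1 stacked bar per library. On average Itgav takes 37.5% of alpha subunit RNA in WT and 53.4% and 55.8% in vehicle-treated and Igfbp2-treated Ncf1-/- NSCs.

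Tln1, Pxn and Tln2 fell without Ncf1, and Tln1 and Pxn rose with Igfbp2. On log2(TPM + 1) none of these 5 changes was called. Tln1 (chromosome 4, 43531519 to 43562691, minus strand), the talin that links the beta tail to actin, was at 229.6, 258, 277 and 248 CPM in WT, 153, 173, 155 and 213 CPM in vehicle-treated and 213, 264, 281 and 239 CPM in Igfbp2-treated libraries. The vehicle-treated range ended just below the lowest value of the other groups. Its log2 fold changes were −0.55 (SE 0.12, adjusted p = 0.00166), 0.53 (SE 0.12, adjusted p = 0.00872) and −0.02 (SE 0.12, adjusted p = 0.884) between treated and WT NSCs. The treatment value was 0.26 with library totals and 0.16 on log2(TPM + 1), called in neither. Pxn (chromosome 5, 115506676 to 115555987, plus strand), the paxillin scaffold, was at 113, 119, 119.5 and 144 CPM in WT, 81.2, 86.1, 90.3 and 92.0 CPM in vehicle-treated and 120.1, 131, 149.6 and 115 CPM in Igfbp2-treated libraries. All vehicle-treated libraries lay below all others. Its log2 fold changes were −0.50 (SE 0.10, adjusted p = 0.000824), 0.56 (SE 0.10, adjusted p = 0.00276) and 0.06 (SE 0.10, adjusted p = 0.642). Its treatment value was 0.29 with library totals and 0.03 on log2(TPM + 1), also called in neither. Tln2, the other talin, fell without Ncf1 by 0.77 (SE 0.17, adjusted p = 0.0017), from 45.5 to 73.6 CPM in WT to 32.2 to 47.2 CPM, and was at 41.0 to 61.4 CPM with Igfbp2 (treatment log2 fold change 0.38, SE 0.17, adjusted p = 0.120, and −0.08 on log2(TPM + 1)). Against WT it stood at −0.40 in treated cells, below the values of Tln1 and Pxn.

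Fermt2, the kindlin of most tissues, was at 146, 141, 197 and 230.4 CPM in WT, 154, 152, 164 and 176 CPM in vehicle-treated and 225, 202, 229 and 221 CPM in Igfbp2-treated libraries. Treated libraries lay above vehicle-treated ones and within the WT range. It rose with Igfbp2 by 0.44 (SE 0.14, adjusted p = 0.0335), a call lost with library totals and when 1 of 7 libraries was left out and at −0.04 on log2(TPM + 1). Fermt3, the kindlin of blood cells, had 6, 10, 18 and 9 counts in WT, 23, 13, 12 and 15 in vehicle-treated and 1, 8, 6 and 5 in Igfbp2-treated libraries. It fell with Igfbp2 by 1.34 (SE 0.43, adjusted p = 0.0372), a call lost with the replicate number as a block, on log2(TPM + 1) and when 1 of 6 libraries was left out. Ilk, at 182, 165, 137 and 137 CPM in WT, 189, 171, 178 and 159.8 CPM in vehicle-treated and 209, 175, 170.5 and 167 CPM in Igfbp2-treated libraries, overlapped in all groups. None of its comparisons was called, with log2 fold changes of 0.17, 0.05 and 0.22 (SE 0.11 each, adjusted p = 0.208, 0.772 and 0.102), although on log2(TPM + 1) it was lower with Igfbp2 by 0.44 (limma adjusted p = 0.0137) and 0.14 below the median of all genes. Of the 2744 exon bases of Ilk, 2106 overlap Taf10 on the opposite strand, and the strand used in counting is not given in the sources used here. Ptk2 stood at 119, 123, 101 and 116 CPM in WT, 86.3, 95.8, 98.4 and 114 CPM in vehicle-treated and 117, 113, 136 and 109 CPM in Igfbp2-treated libraries, with overlap throughout and log2 fold changes of −0.22 (SE 0.10, adjusted p = 0.0814) and 0.27 (SE 0.10, adjusted p = 0.0714), the latter −0.19 on log2(TPM + 1). By mean share of adaptor TPM, Ilk led in each group (35.3% ± 6.15, 43.9% ± 2.76 and 36.7% ± 2.58), followed by Fermt2. In WT replicate 4 Fermt2 was above Ilk, at 74.5 against 65.7 TPM.

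The 7 genes that did not pass the filter were at or near 0. Fermt1, the kindlin of epithelia, and Itgad had 0 counts in all 12 libraries. Itgax had 1 count in vehicle-treated replicate 3 and Itgb6 had 1 count in Igfbp2-treated replicates 2 and 4. Itgb2, Itgal and Itga11 had 0 to 7, 2 to 10 and 0 to 8 counts. At these depths such counts do not show whether the genes were expressed in few cells or in none.

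Of the proteins that join integrins at the adhesion, 29 of 30 listed were tested. Without Ncf1, 8 rose and 14 fell (median log2 fold change −0.32 against 0.02 over all genes), where 28.9% of all genes rose and 28.2% fell. Lims2 (PINCH-2, a partner of Ilk) fell by 4.62 on the log2 scale, from a mean of 77.0 to 3.13 CPM, Tns3 (a tensin) by 2.62, from 1136 to 184 CPM, and Bcar1 (the p130Cas scaffold) by 2.31, from 157 to 31.7 CPM. Parvb (a parvin) fell by 1.47 and the kinase Fyn by 1.41, whereas Lpxn, a leukocyte relative of paxillin, rose by 1.54 at 16 counts or fewer. With Igfbp2, 11 rose and 2 fell (median 0.25 against 0.04), where 14.2% and 10.7% of all genes did. These counts became 1 rise and 5 falls with library totals (median −0.02) and 0 rises and 6 falls on log2(TPM + 1), and the only change of at least 1 on the log2 scale was a fall of Lpxn by 1.61. Between Igfbp2-treated and WT NSCs 10 rose and 12 fell (median −0.06 against −0.01), where 31.6% and 30.8% of all genes did, among them Lims2 (−4.56), Tns3 (−2.13) and Bcar1 (−1.75) below WT and Tgfb1i1 (1.65) and Ptk2b (1.39) above it. The sum of astrocyte markers was also lower without Ncf1 (5373 to 10454 CPM in WT, 1969 to 2416 CPM in vehicle-treated and 2178 to 3029 CPM in Igfbp2-treated libraries). Of the 5 markers, 4 were called lower and 0 higher without Ncf1, and 4 lower and 1 higher between Igfbp2-treated and WT NSCs. Aldh1l1 did not follow the sum, at 241 to 1539 CPM in WT, 1019 to 1143 in vehicle-treated and 1440 to 1782 in Igfbp2-treated libraries. The part of the astrocyte and oligodendrocyte markers in the falls of these adhesion partners was not tested.

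Integrin ligands changed in both directions without Ncf1, and those called with Igfbp2 all rose. Of the 24 listed, all tested, 11 rose and 7 fell without Ncf1 (median log2 fold change 0.41), beside 28.9% and 28.2% of all genes. Spp1 (osteopontin) rose by 3.63 from a mean of 0.276 to 3.66 CPM, Lamb1 by 2.14, Thbs2 by 1.96, Lama4 by 1.44 and Col1a1 by 1.31, whereas Tnr (tenascin-R) fell by 4.70, from 1681 to 64.8 CPM, Lama2 by 1.97 and Thbs1 by 1.02. With Igfbp2, 12 rose and 0 fell (median 0.85), beside 14.2% and 10.7% of all genes, whereas 5 rose and 1 fell on log2(TPM + 1). Npnt (nephronectin, the ligand of Itga8) rose by 1.82 (SE 0.25, adjusted p = 0.00091), from 11.6 to 40.8 CPM, and Tnc (tenascin-C) by 1.47 (SE 0.32, adjusted p = 0.00668), from 287 to 795 CPM. The basement membrane genes Col4a2 (1.59) and Nid1 (1.45) and the collagen gene Col1a2 (1.58, at 13 to 48 counts) completed the 5 largest rises, and Fn1, the ligand of Itga5, was not called (1.47, SE 0.63, adjusted p = 0.101). Against WT, 14 rose and 4 fell in treated cells (median 1.30), beside 31.6% and 30.8% of all genes, led by Spp1 (3.99), Lamb1 (3.26), Npnt (2.87), Col1a2 (2.86) and Col1a1 (2.36), with Tnr (−4.26), Lama2 (−1.35) and Thbs1 (−1.25) lower.

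**Figure D5:**
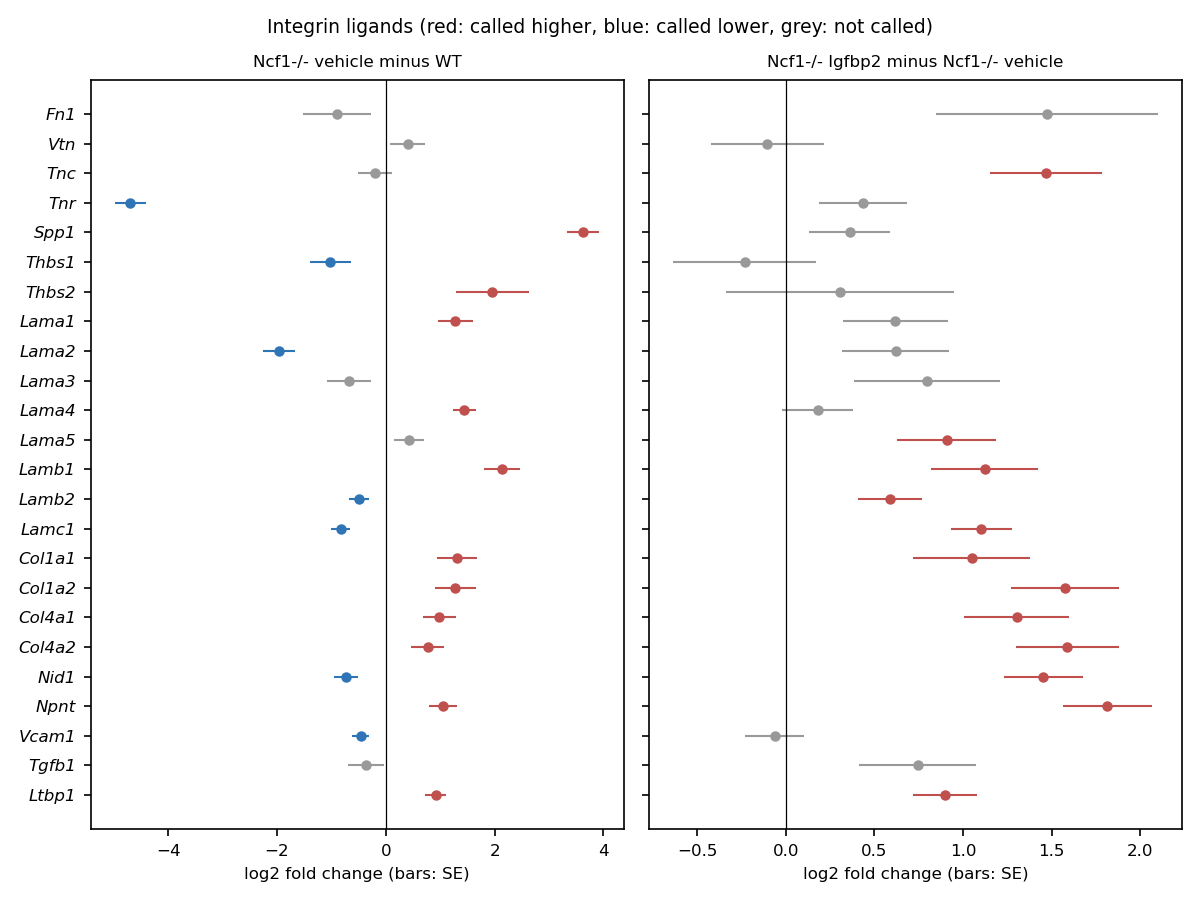
Fitted log2 fold change with its standard error (bars) for each of the 24 integrin ligands, without Ncf1 (left) and with Igfbp2 (right), each panel on its own horizontal scale. Points are in red and blue where called higher and lower and in grey where not called. With Igfbp2, 12 ligands lie above 0 and are called, led by Npnt at 1.82, and none is called below 0.

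Markers of pericytes and mesenchyme had their highest sum in Igfbp2-treated libraries. Their sum was 13.3 to 25.6 CPM in WT, 12.6 to 15.1 CPM in vehicle-treated and 34.9 to 44.5 CPM in Igfbp2-treated libraries. Of the 8 listed, 6 passed the filter and 4 rose with Igfbp2. The 8 include Col1a1 and Col1a2, which are also on the ligand list. The contractile genes Tagln and Acta2 made up most of this sum in treated libraries, at 1.05 to 2.84 and 0.0557 to 2.98 CPM in WT, 3.54 to 4.90 and 5.49 to 6.86 CPM in vehicle-treated and 13.4 to 22.8 and 11.3 to 14.5 CPM in Igfbp2-treated libraries. Pdgfrb ran from 4.88 to 23.5, 0.177 to 0.485 and 0.886 to 1.5025 CPM, Rgs5 from 7 to 31 counts in any library, Dcn from 0 to 4 and Lum from 0 to 1. Endothelial markers summed to 4.05 to 6.04, 2.03 to 2.95 and 2.40 to 3.35 CPM, of which Kdr had 22 to 116 counts, Pecam1 4 to 23, Tek 0 to 16, Cldn5 0 to 10 and Cdh5 0 to 1. Whether such cells were present, and their part in the ligand values, was not tested.

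Of 14 regulators of integrin activity, 4 rose and 4 fell without Ncf1, 4 rose and 3 fell with Igfbp2, and 5 rose and 5 fell against WT in treated cells, with medians of 0.03, 0.18 and −0.03. All genes called made up 57.2%, 25.0% and 62.4% in these comparisons, and the 8 of 14 called without Ncf1 were a share near that of all genes. Apbb1ip (RIAM, which brings talin to the membrane with Rap1) had 0 to 9 counts in WT, 36 to 68 in vehicle-treated and 85 to 108 in Igfbp2-treated libraries, and rose by 1.19 with Igfbp2 (SE 0.27, adjusted p = 0.00807). Kank1, a talin-binding protein, fell by 2.51 without Ncf1, from 173 to 30.5 CPM, and Cav1 by 1.83.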

How the data were processed

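Ribosome-depleted total RNA of 12 NSC cultures was sequenced. Per the submitters' processing notes the authors used Bowtie2, RSEM and GRCm38, without stated versions, and deposited an expected count, TPM and FPKM per gene. Expected counts are estimated counts without normalization (15.9% were not whole) and were rounded. The deposited TPM, which divides by effective length, was used for shares and alternatives. FPKM and the authors' merged table, whose score equals TPM multiplied by the number of transcripts, were not used.

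Genes were kept by filterByExpr (15706, with 99.9% of counts), scaled by TMM factors and tested with edgeR 4.0.16 (glmQLFit, a mean per group, all 12 libraries, two-sided), with Benjamini-Hochberg adjustment over all genes and an adjusted p under 0.05 taken as a call. limma 3.58.1 and DESeq2 1.42.0 in R 4.3.3 served as alternatives, as did library totals, Y-linked expression as a covariate and leaving out each library. The median SE of a log2 fold change was 0.141 without Ncf1 and 0.140 with Igfbp2. The fit was tested on simulated counts.

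The genes and lists were chosen with earlier results of these data known. Values in every library are given for genes called between the treatments or called anywhere with a log2 fold change past 1 in either direction, and for Itgb1, Itgav, Tln1, Ilk and Ptk2. Genes of the other lists are named where called with such a fold change, at most 5 in each direction. Coordinates and overlaps are from GENCODE M21 on GRCm38. Replicates of a group all differed by more than sampling noise (lowest chi-square per degree of freedom 4.72). Same-numbered Ncf1-/- cultures did not deviate together (correlations −0.0673 to 0.0328 over 4 pairs), and sex-linked RNA separated the treatments, so the main fit holds no pairing. The p-values set each difference against the spread between these cultures, taken as independent, and the labels do not give the animal of each culture.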

Additional observations from a re-analysis of the deposited data

Results flagged for a closer look

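Within groups of 4 libraries, the highest or lowest library stood far from the other 3 for 7 of the 81 gene and group combinations tested, where chance alone marks about 1 in 20. WT replicate 3 was the library set apart for 3 of them: it was highest for Itgb4 (10.4 CPM, the others 0.810 to 2.39 CPM) and Itga2b (1.86 CPM, the others 0.864 to 1.002 CPM) and lowest for Tln2 (45.5 CPM, the others 70.5 to 73.6 CPM). WT replicate 1 was lowest for Fermt3, at 0.273 CPM against 0.501 to 0.540 CPM, on 6 counts. Vehicle-treated replicate 4 was highest for Itga2 (16.9 CPM against 13.6 to 14.1 CPM) and for Itgb8 (361 CPM against 298 to 303 CPM). Igfbp2-treated replicate 1 was lowest for Itgav, at 524 CPM against 613 to 619 CPM.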

How the results depend on the processing

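Between vehicle-treated Ncf1-/- and WT NSCs, 15 of the 27 genes were called, and the count moved by over 1.5 times only with genes of at least 5 CPM (9 of 18), limma on log2(TPM + 1) (8), the analysis of variance with Tukey test on TPM (4) and calls with a log2 fold change past 1 (7). Between Igfbp2-treated and WT NSCs the count of 15 moved likewise to 8 of 18 with genes of at least 5 CPM and to 5 with the analysis of variance. In both, leaving out a library gave 14 to 20 and 14 to 19 calls.

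Between the treatments the count of 12 was the least stable. It was 7 with library totals, 4 and 7 with limma on log2(TPM + 1) and log2(TPM + 0.1), 0 with the analysis of variance (8 at an unadjusted p under 0.05), 0 with Y-linked expression as a covariate (5 at an unadjusted p under 0.05), 5 at an adjusted p under 0.01 and 5 with a log2 fold change past 1. Leaving out a library gave 6 (without vehicle-treated replicate 1), 7 (without vehicle-treated replicate 2 or 3) to 17 calls (without WT replicate 3). A fit on only the 2 groups compared, without the WT libraries, called 16. It called 5809 of all genes in place of 3923. On log2(TPM + 1) the sign of 9 treatment values turned: those of Itgb1, Itga6, Fermt2 and Ilk, and, called on neither scale, Ptk2 (0.27 to −0.19), Tln2 (0.38 to −0.08), Itga3 (0.55 to −0.11), Itga2b (0.32 to −0.31) and Itgam (0.04 to −0.05). In the order log2(TPM + 1), log2(TPM + 0.1) and analysis of variance, the log2 difference of Itgb1 was −0.08, −0.081 and −0.089, that of Itga6 −0.109, −0.112 and −0.108 and that of Fermt2 −0.037, −0.038 and −0.03. Fermt2 was −0.004 with the Y-linked covariate, and Ilk, not called with TMM factors, was −0.439 and −0.445 on the TPM scales of limma (adjusted p = 0.0137 and 0.0327). Itga3 against WT after Igfbp2 was −0.122, −0.354 and −0.46. The Y-linked covariate follows the treatment in all 8 Ncf1-/- libraries, so that its fit rests on WT replicate 4 for the separation. The cause of the other changes was not tested.

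Of the 67 genes of the 3 pathway lists, 48 were called without Ncf1, against 16 with the analysis of variance and 22 with a log2 fold change past 1. Against WT after Igfbp2 50 were called, against 23 and 25. Between the treatments 32 were called, against 21 with library totals, 18 and 15 with limma on the TPM scales, 4 with the analysis of variance, 0 with the Y-linked covariate, 14 at an adjusted p under 0.01, 11 with a log2 fold change past 1 and 17 to 41 when a library was left out.

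The replicate numbers did not pair the cultures, and with the number as a block 13 of 26 genes were called between the treatments (12 higher, 1 lower), with Itgav and Itga1 gained and Fermt3 lost. Depth limits Fermt3, Itga10, Itgae, Itgam and the Ncf1-/- values of Itgb7, which rest on 1 to 36 counts per library.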
